A study of Mus musculus with 8 samples.

Results

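The 26S proteasome is the large protease that degrades ubiquitin-tagged proteins. Its 20S core is a barrel of outer alpha rings and inner beta rings that carry the catalytic sites, and the 19S cap recognises, unfolds and threads substrates into that barrel. In cells exposed to interferon gamma, inducible beta subunits take the places of the constitutive catalytic ones and form the immunoproteasome, which is abundant in lymphocytes and supplies many peptides for MHC class I, and the PA28 activator can replace the cap. The genes described here are all those on the array whose platform symbol is Psm followed by a letter from a to g and a digit. Of 19505 named genes, 50 matched, each with 1 probe set. They comprised 8 genes of the alpha ring, 6 of the constitutive beta ring, 4 inducible or thymus-specific beta subunits, 6 ATPases and 11 non-ATPase subunits of the 19S cap, 3 chaperones of cap assembly, 6 activators or inhibitors, 4 chaperones of core assembly and 2 others. Those 2 are Psmc3ip, a meiotic recombination factor that is no proteasome gene, and Psme3ip1, a nuclear protein that binds the activator subunit Psme3. Psmb5, the constitutive chymotrypsin-like subunit, was not matched to a probe set and was not analysed here.

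Arrays came from T cells of the spleens of male C57BL/6 wildtype mice, 4 arrays of cells kept with human beta-defensin-2 (hBD-2, an antimicrobial peptide of epithelia) at 60 µL/mL and 4 of cells kept with phosphate-buffered saline (PBS) in its place. Both groups held CD4 and CD8 cells together, purified with a pan T cell kit, and both were stimulated for 48 h with anti-CD3 and anti-CD28 beads. The labels name 4 mice without saying which arrays share one, and the hBD-2 amount is a volume, so its mass is unknown. Values are the deposited log2 expression values, and a fold change is the difference of group means, hBD-2 minus PBS, with the standard error (SE) and 95% interval of limma, a linear model with a spread shared across genes. A gene was called where its limma p, adjusted by Benjamini-Hochberg over all 19505 genes, was below 0.05.

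All 11 T cell markers stood between 9.27 and 11.6 on every array, and their summed level (log2 of the sum of linear values) was 13.98 to 14.06 on hBD-2 arrays and 13.98 to 14.06 on PBS arrays. Over all genes, the interquartile range of values was narrower on hBD-2 replicates 3 and 4 (3.42 and 3.43) than on the other arrays (3.55 to 3.75). The lowest of all 8 arrays was 1 or the other of them for 35 of the 50 proteasome genes (17 and 18). Genes at or above percentile 75 of mean level were also lowest there, with a median of -0.12 relative to each gene's PBS mean on both. The share of all genes lowest on these 2 arrays was not counted. Summed B cell markers (5 of 6 matched, none called) were 7.04 to 9.01 on hBD-2 arrays and 7.19 to 8.23 on PBS arrays, and were highest on replicates 2 and 4 of both groups. Of 6 macrophage and monocyte markers 1 was called (Itgam, lower, summed level 6.78 to 7.15 with hBD-2 and 6.80 to 7.08 with PBS), of 4 NK cell markers 1 (Nkg7, lower, summed level 10.1 to 10.5 with hBD-2 and 10.6 to 10.9 with PBS) and of 5 erythroid and platelet markers 1 (Klf1, higher, summed level 8.41 to 8.77 with hBD-2 and 8.12 to 8.50 with PBS). In the macrophage and monocyte list, 4 log2 fold changes lay above 0 and 2 below, and Itgam was dim (percentile 33.5 of mean level). None of 6 dendritic cell markers was called (summed level 6.48 to 6.81 with hBD-2 and 6.29 to 6.59 with PBS). Nkg7 is also a gene of cytotoxic T cells. In the NK cell list, Eomes had a log2 fold change of -0.23. Ncr1 and Klrb1c were dim (percentiles 9.17 and 10.0 of mean level), with -0.08 and 0.05, and added little to the sum. The part of these differences in the values below was not tested. Since samples are bulk RNA, less of a transcript per cell and fewer cells that carry it cannot be told apart.

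With hBD-2, 3 transcripts of the proteasome were lower than with PBS past the threshold, 2 of the 20S core and 1 of cap assembly. The genes of the PA28 activator, Psme1 and Psme2, had log2 fold changes of 0.03 and 0.01. Of the 50 genes, 3 fell and none rose: Psmb7, 1.48-fold, Psmd10, 1.44-fold, and Psma4, 1.30-fold. That is 6.00% of the genes, against 3.66% of all genes called lower and 4.46% called in either direction. Proteasome genes gave bright signals, 41 of the 50 lying at or above percentile 75 of mean level over all genes (called bright below). Among those 41, 2 fell (4.88%), against 8.32% of all 4877 genes that bright. The difference between these shares was not tested. At an unadjusted p below 0.05, 12 of the 50 were lower and none higher, against 12.8% of all genes lower, and among the bright ones 10 of 41 (24.4%) against 26.3%.

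Promoters are shown for the called genes with an entry in the RefSeq promoter table (assembly GRCm38.p6), Psma4 and Psmd10, and for Psme1, a bright gene whose level was close in both groups. Each covers 250 bases before to 50 after the start, 5′ to 3′ on the gene's strand. Capitals mark matches on either strand to any of 5 motifs: TGACNNNGC (the core of the antioxidant response element, bound by NRF1, the main activator of proteasome genes), CCAAT, the core of the interferon-stimulated response element (GAAA and a further GAAA with any 2 bases between), TTCNNNGAA (bound by STAT factors) and CACGTG (E box).
Psma4, chr9:54950609-54950908, plus strand: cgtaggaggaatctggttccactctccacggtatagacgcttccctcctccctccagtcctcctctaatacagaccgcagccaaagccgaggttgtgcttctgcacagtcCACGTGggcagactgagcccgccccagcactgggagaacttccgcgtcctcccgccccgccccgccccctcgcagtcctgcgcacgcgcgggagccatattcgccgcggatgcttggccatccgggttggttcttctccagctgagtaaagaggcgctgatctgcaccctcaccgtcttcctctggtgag
Psmd10, chrX:140956662-140956961, minus strand: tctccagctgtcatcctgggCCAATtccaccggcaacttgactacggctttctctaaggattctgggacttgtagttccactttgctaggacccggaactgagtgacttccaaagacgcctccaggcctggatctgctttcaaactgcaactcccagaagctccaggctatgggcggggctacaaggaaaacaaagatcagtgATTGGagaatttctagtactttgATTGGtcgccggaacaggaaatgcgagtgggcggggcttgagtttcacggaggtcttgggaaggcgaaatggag
Psme1, chr14:55578244-55578543, plus strand: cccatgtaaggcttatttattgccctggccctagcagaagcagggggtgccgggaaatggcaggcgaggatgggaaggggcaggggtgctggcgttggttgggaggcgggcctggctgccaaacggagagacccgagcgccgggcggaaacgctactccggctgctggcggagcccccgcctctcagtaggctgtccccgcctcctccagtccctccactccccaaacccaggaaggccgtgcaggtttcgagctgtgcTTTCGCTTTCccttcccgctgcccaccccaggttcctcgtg
The Psma4 window held 1 E box, the Psmd10 window 3 CCAAT matches and the Psme1 window 1 match to the interferon-stimulated element. Of the 50 genes, 42 had an entry, with 46 starts in all. TGACNNNGC was found in 10.9% of those starts (Psmb6, Psmc6, Psmd12, Psmd9 and Psme4), against 12.4% of all 32851 promoters in the table, and CCAAT in 34.8% against 37.4%. The interferon-stimulated core was found in 10.9% (Psmb3, Psmd4, Psmd9, Psme1 and Psmg4) against 3.44%, TTCNNNGAA in 6.52% (Psmb8, Psmd2 and Psmg1) against 8.30%, and CACGTG in 10.9% (Psma4, Psmb10, Psmd9, Psme3 and Psme3ip1) against 7.15%. These are letter matches in a short window and carry no test.

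In the 20S core, all 14 measured genes of the alpha and constitutive beta rings had log2 fold changes below 0, from -0.56 to -0.09 with a median of -0.18, and 2 of them fell. Of all genes, 46.1% lay below 0 and 3.66% were called lower, and of all bright genes 64.6% and 8.32%. The median over all genes was 0.02, and over all bright genes -0.08. Psmb7, the trypsin-like catalytic subunit, was at 9.15, 8.97, 8.68 and 8.73 on hBD-2 replicates 1 to 4, against 9.51, 9.49, 9.29 and 9.49 on PBS replicates 1 to 4. All hBD-2 arrays lay below all PBS arrays, with replicates 3 and 4 lowest among the hBD-2 arrays. Its means were 8.88 ± 0.217 with hBD-2 and 9.44 ± 0.10 with PBS (SD, n = 4 each), a log2 fold change of -0.56 (SE 0.117, limma adjusted p = 0.0228). Psma4, a subunit of the alpha ring, was at 9.80, 9.76, 9.57 and 9.79 on the hBD-2 arrays, against 10.14, 10.13, 10.01 and 10.17 on the PBS arrays. The groups were again apart, and replicate 3 was the lowest array of each. The log2 fold change was -0.38 (SE 0.0921, limma adjusted p = 0.0406).

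Other core genes missed the threshold on the deposited values. With genes under percentile 40 of level left out, Psmb2 was called lower. With a variance trend and robust estimation in limma, Psma1, Psmb2 and Psmb6 were (limma adjusted p = 0.0099 for Psma1 and 0.0106 for Psmb6). None of these 3 was called under the 3 other scalings described below. Psma1, also of the alpha ring, was at 9.04, 9.01, 8.59 and 8.78 with hBD-2, against 9.17, 9.17, 9.21 and 9.23 with PBS, so that the groups did not overlap and the spread was wider with hBD-2 (-0.34 on the log2 scale, SE 0.110, limma adjusted p = 0.0986). Psmb6, the caspase-like catalytic subunit, was at 8.87, 9.02, 8.61 and 8.70 with hBD-2, against 9.22, 9.28, 8.95 and 9.18 with PBS. Its groups overlapped through hBD-2 replicate 2 and PBS replicate 3, and the log2 fold change was -0.36 (SE 0.116, limma adjusted p = 0.102). In Psmb2, Psmb1 and Psmb4 of the beta ring the groups did not overlap either, with log2 fold changes of -0.34, -0.17 and -0.19. The remaining alpha subunits Psma2, Psma3, Psma5, Psma6 and Psma7 and the beta subunit Psmb3 lay between -0.19 and -0.12, all with overlapping groups. Psma8, the alpha subunit of the testis, was at 3.35 to 4.01 over all arrays, in the dim part of the range (percentile 23.4).

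**Figure D1:**
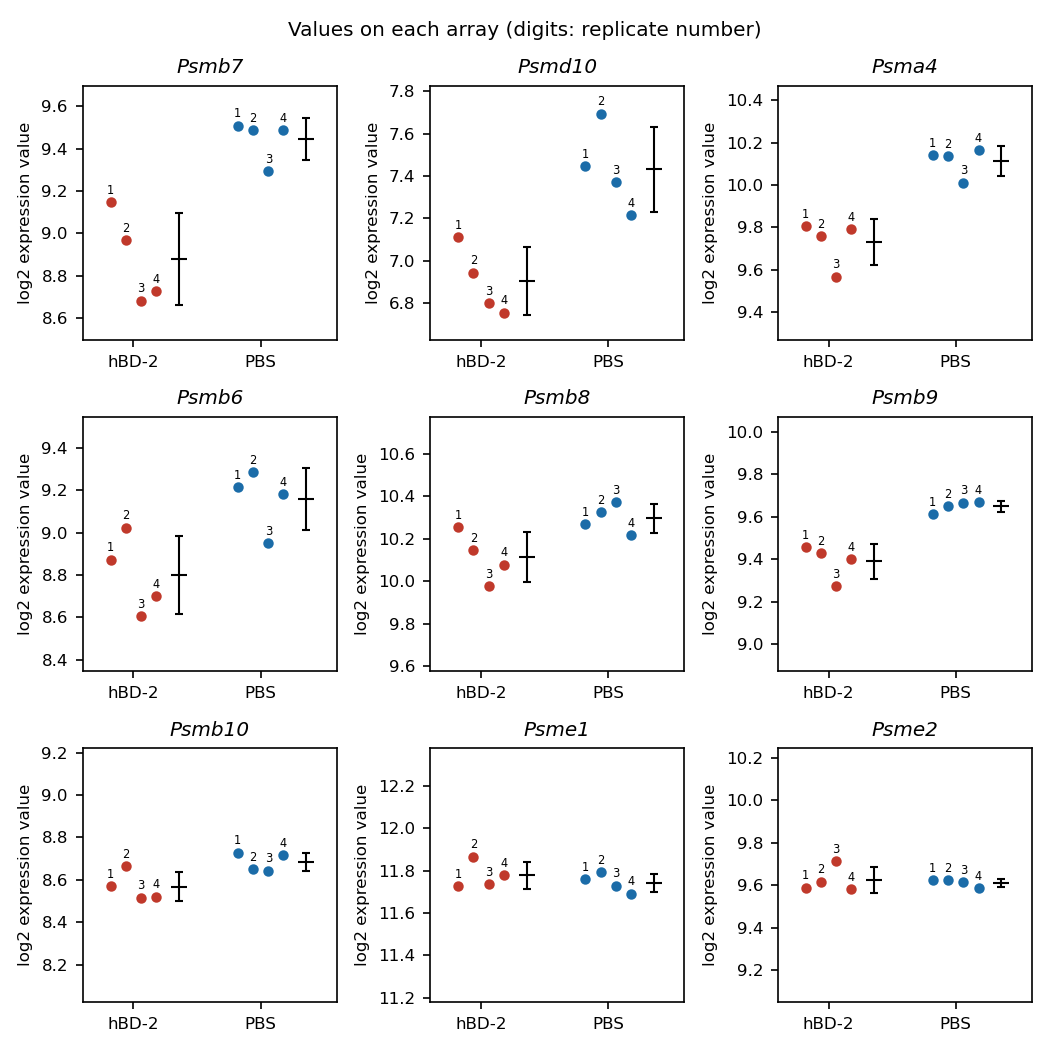
Log2 expression values (vertical axis, each panel spanning the same 1.2 log2 units) of 9 proteasome genes on the hBD-2 arrays (left, red) and the PBS arrays (right, blue), with replicate numbers above the points and mean ± SD beside them (n = 4 each). Psmb7, Psmd10, Psma4 and Psmb9 show groups that are apart, while Psme1 and Psme2 show groups that overlap closely.

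None of the 4 inducible or thymus-specific genes passed the threshold on the deposited values, and the median log2 fold change was -0.15. Psmb9, which takes the place of Psmb6, was at 9.46, 9.43, 9.27 and 9.40 with hBD-2, against 9.61, 9.65, 9.67 and 9.67 with PBS. The groups were apart by a small step (log2 fold change -0.26, 95% interval -0.45 to -0.07, limma adjusted p = 0.106). Psmb9 was called lower when genes under percentile 40 of level were left out (adjusted p = 0.0444) and with a variance trend and robust estimation in limma (adjusted p = 0.0089). Psmb8, which takes the place of Psmb5, was at 10.25, 10.15, 9.98 and 10.08 with hBD-2, against 10.27, 10.33, 10.37 and 10.22 with PBS. Only hBD-2 replicate 1 reached into the PBS range, and the log2 fold change was -0.18 (95% interval -0.39 to 0.02, limma adjusted p = 0.275). Psmb10, which takes the place of Psmb7, was at 8.57, 8.66, 8.52 and 8.52 with hBD-2, against 8.73, 8.65, 8.64 and 8.72 with PBS. Its groups overlapped (log2 fold change -0.12, 95% interval -0.30 to 0.07, limma adjusted p = 0.451). Psmb11, the catalytic subunit of the thymus epithelium, was dim, with 4.08 to 4.63 over all arrays.

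Whether an inducible subunit changed by a different amount than the constitutive one it replaces was asked with the difference of their log2 values on each array, for the 2 pairs that were measured. Psmb10 minus Psmb7 was -0.58, -0.30, -0.17 and -0.21 on the hBD-2 arrays, against -0.78, -0.84, -0.65 and -0.77 on the PBS arrays. All hBD-2 values lay above all PBS values, by 0.45 log2 units in the mean, or a ratio 1.36-fold higher (two-sided exact permutation p = 0.0286, which is as small as this design allows, and 0.0571 adjusted over the 2 pairs). Psmb9 minus Psmb6 was 0.58, 0.41, 0.67 and 0.70 on the hBD-2 arrays, against 0.40, 0.37, 0.72 and 0.49 on the PBS arrays, which overlapped (difference 0.10, two-sided exact permutation p = 0.4, also 0.4 after adjustment). Neither pair passed after adjustment. With 4 arrays a group, 1 pair alone could not pass, since 0.0286 becomes 0.0571 unless both pairs reach it. Such a difference, had it passed, would show unequal change, not which of the 2 genes moved. Taken singly, Psmb7 had a log2 fold change of -0.56 and was called, while Psmb10 had -0.12 and was not.

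In the 19S cap, none of the 17 subunit genes passed the threshold, and 14 of them had log2 fold changes below 0 (median -0.12). At an unadjusted p below 0.05, 12.8% of all genes and 26.3% of all bright genes were lower. Of the 17 cap genes 3 were, Psmd1, Psmd13 and Psmd14. The same 3 were called lower both with that filter on dim genes and with the variance trend model. Over all genes, 1192 of 11703 were called lower with the filter and 1554 of 19505 with the variance trend. None of the 3 was called under the 3 other scalings described below. The 6 ATPases, which form the unfolding ring, lay between -0.23 (Psmc2) and 0.03 (Psmc6), each with overlapping groups. Psmc2 was at 9.20, 9.24, 8.93 and 8.88 with hBD-2, against 9.34, 9.36, 9.23 and 9.25 with PBS, replicates 3 and 4 being the low ones (limma adjusted p = 0.226). Psmc3 was at 9.15, 9.25, 9.08 and 9.17 with hBD-2, against 9.39, 9.40, 9.21 and 9.27 with PBS (limma adjusted p = 0.334).

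The non-ATPase subunits ran from -0.40 to 0.14. Psmd13, a scaffold subunit of the lid, was at 9.43, 9.44, 9.10 and 9.43 with hBD-2, against 9.87, 9.72, 9.69 and 9.71 with PBS. The groups were apart, hBD-2 replicate 3 lay far under its group and PBS replicate 1 above the others (-0.40 on the log2 scale, SE 0.104, limma adjusted p = 0.0547, with the filter 0.0243 and with the variance trend 0.0012). Under the 3 other scalings the limma adjusted p of Psmd13 was 0.0929 to 0.0994. Psmd14, the deubiquitinase that strips ubiquitin from substrates, was at 8.31, 8.22, 8.01 and 7.83 with hBD-2, against 8.58, 8.36, 8.41 and 8.51 with PBS. Its groups did not overlap (-0.37 on the log2 scale, SE 0.115, limma adjusted p = 0.0900, with the filter 0.0457 and with the variance trend 0.0129). Under the 3 other scalings the limma adjusted p of Psmd14 was 0.133 to 0.145. Psmd1, a scaffold of the base, had a log2 fold change of -0.36 without overlap (limma adjusted p = 0.0647), and Psmd12 one of -0.16. Psmd4, a ubiquitin receptor, lay above 0 (0.14, limma adjusted p = 0.425), and Psmd7, the partner of Psmd14, was at 10.2 in both groups (log2 fold change 0.01, 95% interval -0.17 to 0.19). The remaining 5, Psmd2, Psmd3, Psmd6, Psmd8 and Psmd11, lay between -0.13 and -0.08.

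**Figure D2:**
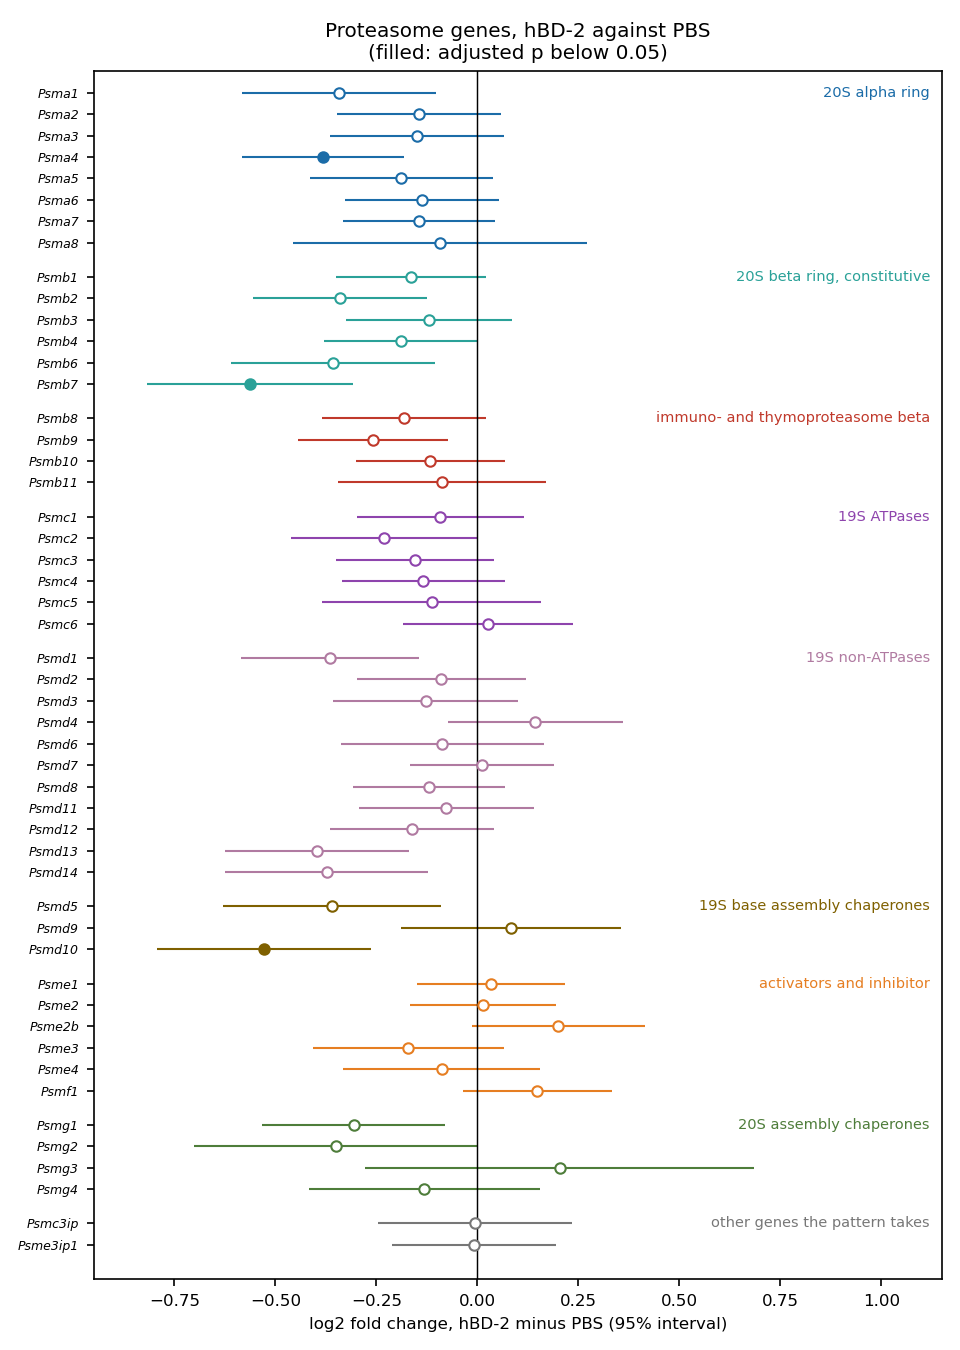
Log2 fold change (horizontal axis, hBD-2 minus PBS) of each of the 50 genes with its 95% limma interval, n = 4 arrays a group, grouped and coloured by role. Filled points mark Psma4, Psmb7 and Psmd10, the 3 with an adjusted p below 0.05, and all 14 core genes lie left of 0, from -0.56 to -0.09.

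Assembly factors held the remaining called gene. Psmd10 (gankyrin), a chaperone that guides assembly of the cap's base, was at 7.11, 6.94, 6.80 and 6.76 with hBD-2, against 7.45, 7.69, 7.37 and 7.21 with PBS. All hBD-2 arrays lay below all PBS arrays, although hBD-2 replicate 1 was close to PBS replicate 4. Its means were 6.90 ± 0.160 with hBD-2 and 7.43 ± 0.200 with PBS (SD, n = 4 each), a log2 fold change of -0.53 (SE 0.121, limma adjusted p = 0.0349). Psmd5, a second chaperone of the base, was at 7.22, 6.79, 6.76 and 6.70 with hBD-2, against 7.36, 7.16, 7.13 and 7.27 with PBS, with hBD-2 replicate 1 inside the PBS range (-0.36 on the log2 scale, SE 0.123, limma adjusted p = 0.119). Psmd9, the third, was at 6.84 ± 0.0515 with hBD-2 and 6.75 ± 0.263 with PBS (limma adjusted p = 0.740).

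Psmg1 and Psmg2 form the dimer that starts assembly of the alpha ring. Psmg1 was at 7.95, 7.94, 7.64 and 8.01 with hBD-2, against 8.29, 8.21, 8.14 and 8.12 with PBS. Its groups were apart (-0.31 on the log2 scale, SE 0.104, limma adjusted p = 0.115, with the filter 0.0582 and with the variance trend 0.0341). Under the 3 other scalings the limma adjusted p of Psmg1 was 0.224 to 0.265. Psmg2 was at 8.34, 8.04, 7.51 and 8.20 with hBD-2, against 8.35, 8.52, 8.19 and 8.43 with PBS, and its groups overlapped, hBD-2 replicate 3 being by far the lowest (-0.35 on the log2 scale, SE 0.160, limma adjusted p = 0.225). Psmg3 and Psmg4, which form the other dimer, had log2 fold changes of 0.20 and -0.13 with group means of 4.93 to 5.56. Pomp, the maturation protein of the beta ring, is no member by symbol but belongs to the same step. It was at 8.64, 8.53, 8.25 and 8.18 with hBD-2, against 8.90, 8.95, 8.69 and 8.81 with PBS, without overlap (-0.44 on the log2 scale, SE 0.119, limma adjusted p = 0.0632, with the filter 0.0308 and with the variance trend 0.0036). Under the 3 other scalings the limma adjusted p of Pomp was 0.0883 to 0.0896.

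None of the 6 activator and inhibitor genes was called, and their median log2 fold change was 0.02. Psme1, the alpha subunit of PA28, was at 11.73, 11.87, 11.74 and 11.78 with hBD-2, against 11.76, 11.79, 11.73 and 11.69 with PBS. The groups overlapped throughout, and the 95% interval of the log2 fold change was -0.15 to 0.22 around 0.03 (limma adjusted p = 0.850). Psme2, its beta subunit, was at 9.59, 9.62, 9.71 and 9.58 with hBD-2, against 9.62, 9.63, 9.61 and 9.58 with PBS, with an interval of -0.17 to 0.19 around 0.01 (limma adjusted p = 0.948). Psme2b, a close copy of Psme2, was at 9.79, 9.77, 9.59 and 9.75 with hBD-2, against 9.51, 9.49, 9.71 and 9.39 with PBS. Its PBS replicate 3 lay within the hBD-2 range (0.20 on the log2 scale, limma adjusted p = 0.254), and the sources used here do not say how far probes tell the 2 copies apart.

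Psme3, the nuclear PA28 gamma, was at 9.69, 9.68, 9.40 and 9.49 with hBD-2, against 9.74, 9.81, 9.53 and 9.86 with PBS, replicate 3 being lowest in both groups (-0.17 on the log2 scale, limma adjusted p = 0.378). Psme4, the activator PA200, was at 7.55, 7.45, 7.48 and 7.31 with hBD-2, against 7.66, 7.29, 7.48 and 7.71 with PBS (-0.09 on the log2 scale, limma adjusted p = 0.687), a sign that turned with quantile normalization. Psmf1, the regulator PI31, was the 1 gene of the 50 whose hBD-2 arrays all lay above the PBS arrays (5.51% of all genes), at 10.1 ± 0.0481 with hBD-2 and 9.98 ± 0.0622 with PBS, without passing (0.15 on the log2 scale, limma adjusted p = 0.329). Psmc3ip and Psme3ip1 had log2 fold changes of -0.01 each, and both turned above 0 under the 3 other scalings described below.

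Of the 50 log2 fold changes, 41 lay below 0 (82.0%), against 46.1% of all genes and 64.6% of all bright genes. Among the 41 bright proteasome genes, 34 did. The median of the 50 was -0.14, against 0.02 over all genes. At or above percentile 75 the median was -0.14 for the 41 proteasome genes and -0.08 for all genes. Groups did not overlap, with hBD-2 lower, in 13 of the 50 (26.0%, against 9.36% of all genes), and in 12 of the 41 bright ones (29.3%, against 23.3%). The running median of all genes lay below 0 at bright levels. When arrays were put on 1 distribution again by quantile normalization, the median of the 50 was -0.05, with 35 below 0, against 0.01 over all bright genes. It was -0.06 with cyclic loess and -0.06 with each array's trend against level removed, with 38 below 0 under each, against 0.00 over all bright genes in both. The 14 core genes were all below 0 under each of these 3 scalings, with a median of -0.10 under each. Psmb7 was called under all 3 (log2 fold changes -0.47 to -0.48), Psmd10 with cyclic loess and with the level trend removed but not with quantile normalization (adjusted p = 0.0542), and Psma4 under none (adjusted p from 0.0745 to 0.0770). Cap subunits were less uniform, 6 of 11 non-ATPase genes being below 0 under quantile normalization (Psmd2, Psmd6 and Psmd11 turned above it) and 8 under the other scalings (Psmd11 turned), against 9 on the deposited values. Psme1 and Psme2 had log2 fold changes of 0.09 to 0.11 under the 3 scalings.

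**Figure D3:**
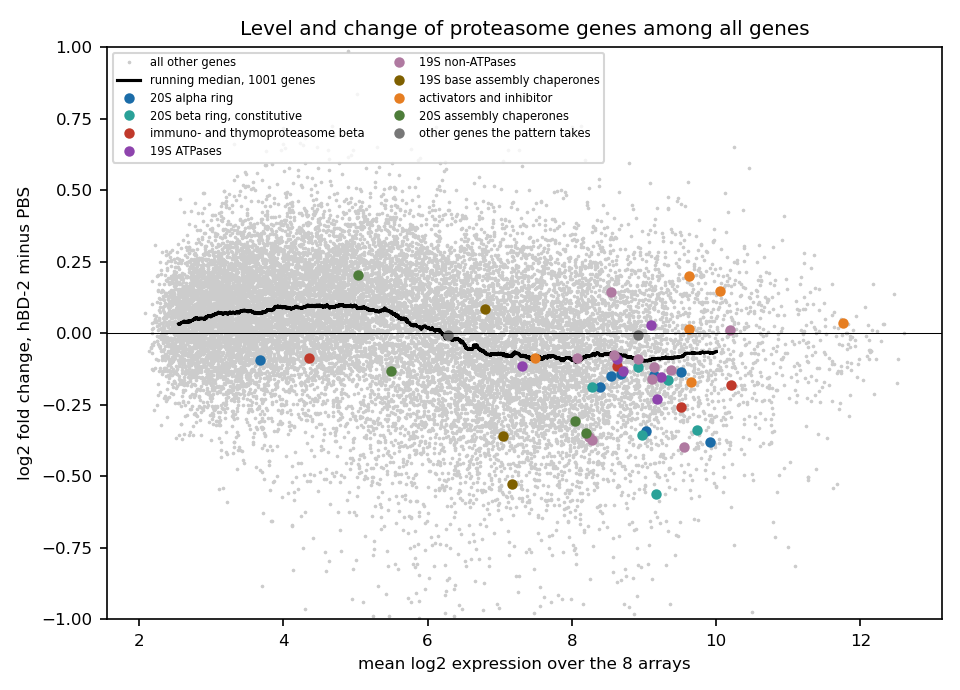
Log2 fold change (vertical axis, hBD-2 minus PBS, cropped at 1 either way, with 74 genes outside) against mean log2 expression over the 8 arrays for all genes (grey), with the 50 genes coloured by role and a running median in black. The running median lies above 0 for dim genes and below 0 for bright ones, and all 14 core genes lie below 0.

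The number of called proteasome genes moved with single arrays. By limma it was 0 when replicate 3 or 4 of hBD-2 was left out (13 genes each at an unadjusted p below 0.05) and when replicate 1 or 2 of PBS was (12 each). It was 1 when replicate 2 of hBD-2 (Psmb7) or replicate 3 (Psmb7) or 4 (Psmd10) of PBS was left out, and 8 without hBD-2 replicate 1, the added genes being Psmb2, Psmd1, Psmd5, Psmd13 and Psmd14. Genes called lower over all 19505 moved too, from 713 on the deposited values. They were 339 and 313 without hBD-2 replicate 3 or 4, and 279 and 299 without PBS replicate 1 or 2. They were 523, 548 and 325 without hBD-2 replicate 2, PBS replicate 3 or PBS replicate 4. Without hBD-2 replicate 1 they were 1074. Genes at an unadjusted p below 0.05 numbered 3411 to 3641 where a single omission left no proteasome gene called. With hBD-2 replicates 3 and 4 both left out, the number of called proteasome genes was 0 (7 at an unadjusted p below 0.05). Of all genes, 112 were then called lower. The log2 fold changes were -0.39 for Psmb7, -0.40 for Psmd10 and -0.33 for Psma4, with a median of -0.09 over the 50. Leaving out arrays 1 at a time, the log2 fold change stayed between -0.65 and -0.50 for Psmb7, between -0.60 and -0.44 for Psmd10 and between -0.42 and -0.33 for Psma4. Relative to each gene's PBS mean, the median proteasome gene stood at -0.10, -0.09, -0.17 and -0.22 on hBD-2 replicates 1 to 4, against 0.07, 0.00, -0.07 and 0.00 on PBS replicates 1 to 4. All hBD-2 arrays were below all PBS arrays. The same held, by a narrow step, for the bright genes as a whole. Those stood at -0.021, -0.054, -0.119 and -0.119 on the hBD-2 arrays, against 0.017, -0.004, -0.020 and 0.012 on the PBS arrays.

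**Figure D4:**
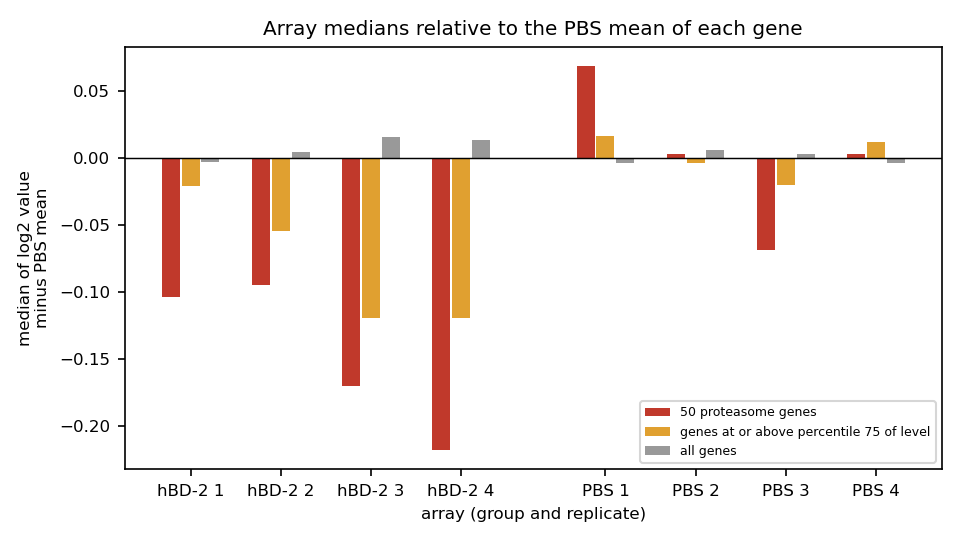
Median over genes of the log2 value minus the gene's PBS mean (vertical axis) on each hBD-2 array (left) and each PBS array (right), for the 50 proteasome genes (red), all genes at or above percentile 75 of level (yellow) and all genes (grey). The proteasome bar is the lowest on every hBD-2 array, from -0.22 to -0.09, and is deepest on replicates 3 and 4.

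Genes that work with the proteasome were read from the same fit, in 6 lists with 41 measured genes in all, Psme3ip1 among them (3.66% of all genes called lower, 0.8% higher). Of these 1 fell, Ifng, and none rose. The list of other subunits and assembly factors (5 of 9 entries measured) had none called on the deposited values, Sem1, a small cap subunit, and Ecpas, a proteasome adaptor, having log2 fold changes of -0.10 and -0.23. None of the 6 measured genes of the list around NRF1 was called, and NRF1's own gene, Nfe2l1, was at 9.10 ± 0.125 with hBD-2 and 9.04 ± 0.0782 with PBS (SD, n = 4 each). Nfe2l2, Ngly1 and Maff had -0.15, -0.18 and 0.12. Of 7 deubiquitinases and ligases that dock on the proteasome none was called (Usp14 -0.32, Ube3c -0.17, and Zfand5, which stimulates the 26S proteasome, 0.24). Of 11 ubiquitin shuttle and p97 genes none was called either, the unfoldase gene Vcp having -0.30 and its cofactors Ufd1 and Nploc4 -0.26 and 0.14. Uba6, a ubiquitin-activating enzyme, was the single measured gene of 6 entries in its list (-0.27, limma adjusted p = 0.125).

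Interferon gamma is the main inducer of the inducible subunits, and its list had 11 of 13 entries measured. Ifng, the gene of interferon gamma itself, was at 5.36, 5.76, 4.76 and 5.43 with hBD-2, against 7.01, 7.01, 6.72 and 6.47 with PBS, and fell 2.78-fold without overlap (-1.48 on the log2 scale, SE 0.194, limma adjusted p = 0.00204). Irf1, a transcription factor that induces immunoproteasome genes, was higher on every hBD-2 array without passing, at 10.5 ± 0.0103 with hBD-2 and 10.2 ± 0.0608 with PBS (0.30 on the log2 scale, limma adjusted p = 0.0649), and it was called higher under each of the 3 scalings (adjusted p from 0.0305 to 0.0354), as was Jak2, a kinase of the interferon gamma receptor. Irf8, a factor of the same family, stood at -0.39 without overlap (limma adjusted p = 0.0649). The peptide transporter genes Tap1 and Tap2, which neighbour Psmb9 and Psmb8 in the MHC, had 0.03 and -0.18, and B2m, the light chain of MHC class I, had -0.17.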

How the data were processed

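A single table was used, with 22203 probe sets on 8 one-colour arrays, whose unit as deposited by the authors is log2. Per the submitters' processing notes, oligo and RMA (background correction, normalization between arrays and probe summary) made its values. Versions, settings and annotation build were, in the sources used here, not given. RMA draws dim signals to a common floor, so their changes are understated. Of the probe sets, 19572 have 1 gene symbol in the platform table, and the other 2631, without a single symbol there, were not used. The probe set with the highest mean was kept for 55 genes, none of them a proteasome gene, which left 19505 genes, with no filter on dim ones. Groups came from the sample titles. Nothing says which arrays came from separate mice or cultures, so p-values measure the spread between these arrays, and the number of arrays limits the precision.

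Tests across genes used limma (version 3.58.1, under R 4.3.3, with lmFit and eBayes, no block, two-sided, Benjamini-Hochberg over all genes, threshold 0.05), and the fit was checked on simulated data. Catalytic pairs were compared with an exact permutation test. Of 3 pairs planned, 2 could be computed, since Psmb5 was not matched. Genes are accounted for by class, with array values for called genes, Psmb6 to Psmb10, Psme1 to Psme4 and the 2 largest changes of each class, and of each related list for the called genes or the 3 with the smallest p by fold change. Nfe2l1, Jak2, Tap1, Tap2, B2m and, with their values, the other class members named lie outside this rule. The members and lists were chosen with earlier results of these data known. Alternatives were the replicate number as a block, quantile normalization, cyclic loess, a level trend removed (loess span 0.4), genes at or above percentile 40 of level, a variance trend with robust estimation, mean probe sets and each array left out.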

Additional observations from a re-analysis of the deposited data

Results flagged for a closer look

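Single arrays stood apart from the other 3 of their group in 7 of 100 combinations of gene and group, by a gap above Dixon's 95% critical value. Chance alone marks about 1 in 20. Psmd13 was marked in both groups, with 9.10 on hBD-2 replicate 3 (the others 9.43 to 9.44) and 9.87 on PBS replicate 1 (the others 9.69 to 9.72). The PBS replicate 3 value was low for Psmb7 (9.29, the others 9.49 to 9.51) and for Psmc4, an ATPase of the cap (8.60, the others 8.82 to 8.85). PBS replicate 1 was high for Psmd8, a lid subunit (9.30, the others 9.15 to 9.17). Among hBD-2 arrays, replicate 1 was high for Psmd5 (7.22, the others 6.70 to 6.79) and replicate 4 for Psmc3ip (6.50, the others 6.19 to 6.23).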

How the results depend on the processing

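The count of called proteasome genes, 3 on the deposited values, was 1 with quantile normalization, 8 with genes at or above percentile 40 of level, 11 with a variance trend and robust estimation, and 0 with hBD-2 replicates 3 and 4 both left out, a setting chosen after seeing the data (limma, 7 genes at an unadjusted p below 0.05). It ranged from 0 to 8 with arrays left out 1 at a time. Called genes overall numbered 869, and 1541, 2033 and 128 under the filter, the variance model and the omission of both arrays, with 312 to 1396 over single omissions. Higher against lower calls were 156 and 713 on the deposited values (82.0% lower), 234 and 506 with quantile normalization (68.4%), 224 and 568 with cyclic loess (71.7%) and 221 and 570 with the level trend removed (72.1%). The related genes called, 1 on the deposited values, were 2 with the replicate block and 3 under each of the other 3 scalings (Ifng, Irf1 and Jak2). There were 5 under the filter (Ifng, Irf1, Irf8, Jak2 and Pomp) and 9 under the variance model. Those 9 were the same 5 with B2m, Uba6, Vcp and Zfand5. Over single omissions the count was 1 to 3. The median of the proteasome genes, -0.14, was -0.047 with quantile normalization, -0.059 with cyclic loess and -0.063 with the level trend removed, and -0.18 to -0.11 over single omissions. Psmb10 minus Psmb7 ranged from 0.40 to 0.53 and Psmb9 minus Psmb6 from 0.06 to 0.17 over single omissions, where the exact test cannot go below 0.0571. The sign turned for Psme2 without hBD-2 replicate 3 (-0.017, with single omissions spanning -0.017 to 0.027) and without both arrays (-0.0097), for Psme4 with quantile normalization (0.00021) and for Sem1 with quantile normalization (0.0096) and without both arrays (0.0025). The cause was not tested.

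Deviations of same-numbered arrays from their group means correlated at 0.271, 0.126, 0.249 and -0.0187 for numbers 1 to 4, and 6 of 8 arrays correlated best with their own number, a hint from the data and not the design. With the replicate number as a block, 3 proteasome genes and 857 genes overall were called, and Pomp passed (adjusted p = 0.0459). By the paired exact test the block gave a difference of 0.45 for Psmb10 minus Psmb7 (p = 0.125, the smallest that 4 pairs can give) and of 0.10 for Psmb9 minus Psmb6 (p = 0.375).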
